A study of Rattus norvegicus with 12 samples.

Results

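The cytosolic ribosome carries many proteins on a scaffold of ribosomal RNA, and nearly all of them are encoded by genes named Rpl for the large subunit and Rps for the small subunit. Rows of the deposited table were taken as members where any of their gene names started with Rpl or Rps plus a number, or was Rplp0 to Rplp2 or Rpsa. Kinases of the Rps6k type were left out, and the mean over the 12 libraries had to reach 1. Of 19230 rows, 90 matched by name and 89 passed, with only Rps4x-ps1 left out at a mean of 0.55. The members were 43 large subunit rows, 31 small subunit rows, the 3 stalk proteins (Rplp0, Rplp1 and Rplp2) and 12 rows of paralogues or other genes with such a name. The lowest rows that passed were Rpl39l at 3.97, Rpl3l at 10.6 and Rpl30l1 at 14.1.

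RNA was sequenced from Sprague-Dawley rats in 4 groups of 3 libraries. Total lung was from wild-type (WT) rats kept in normoxia (day 0) and, 4 days into SuHx, from WT rats and from rats with the genotype label Ahr-KO. SuHx is treatment with SU5416 (Sugen), a blocker of VEGF receptors, together with hypoxia, and is used as a model of pulmonary arterial hypertension. The last group was endothelial cells (ECs) of WT rats in normoxia, with day 4 in the labels and 0 in the column names. Lung of normoxic Ahr-KO rats was not analysed here, so genotype was compared within SuHx only. The age of the rats, the way ECs were isolated, and the kind of Ahr allele were not stated by the labels. Libraries are named below by group and column suffix (0, 1 or 2). Whether the 3 libraries of a group are 3 animals is not stated, so p-values measure the spread between these samples, which may be technical.

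Ribosomal protein mRNAs are made in large and nearly matched amounts in all cells, because a ribosome needs 1 copy of almost every protein. Their mRNAs mostly start with a cytosine followed by a run of pyrimidines, the 5' terminal oligopyrimidine (TOP) tract, through which the kinase mTORC1 and the RNA-binding protein Larp1 control their translation. Their transcription, and that of the factors that assemble ribosomes, is raised by Myc in growing cells. In the lung, a tissue with many cell types, the level in a total extract is an average over those cells, and in bulk RNA fewer cells of a type cannot be told apart from less RNA per cell.

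To show the start sites that the family shares, 50 bases around the annotated start are printed for members that the results turn on. They are from RefSeq on the GRCr8 build (the labels name rn6 for the reads), 25 bases before and 25 from the start base on, read 5' to 3' on the gene's strand. Capitals mark an unbroken pyrimidine run of at least 5 bases that reaches to within 5 bases of the start.
Rplp0, chr12:46718366-46718415, minus strand: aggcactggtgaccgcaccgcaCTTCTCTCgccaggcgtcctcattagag
Rps2, chr10:14251823-14251872, plus strand: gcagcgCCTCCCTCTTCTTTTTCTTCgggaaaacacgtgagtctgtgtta
Rps28, chr7:15311309-15311358, minus strand: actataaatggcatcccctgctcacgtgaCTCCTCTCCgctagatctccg
Rpl35a, chr11:81234997-81235046, minus strand: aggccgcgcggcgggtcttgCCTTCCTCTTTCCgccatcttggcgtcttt
Rpl39, chrX:121195872-121195921, minus strand: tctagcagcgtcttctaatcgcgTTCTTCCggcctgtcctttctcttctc
Rpl3, chr7:113507966-113508015, minus strand: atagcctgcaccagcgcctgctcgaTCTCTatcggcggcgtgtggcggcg
Such a run was not found in every subunit row: the windows of Rpsa (small subunit) and Rpl18 (large subunit), not printed, hold none. The windows of the paralogues Rps27l and Rpl22l1, printed next, hold none either.
Rps27l, chr8:76443633-76443682, plus strand: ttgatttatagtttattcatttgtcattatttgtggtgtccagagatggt
Rpl22l1, chr2:113683171-113683220, plus strand: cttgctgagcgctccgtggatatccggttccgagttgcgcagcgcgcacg

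A promoter window of 300 bases (250 before and 50 after the start) was found by symbol for 69 of the 88 members with a single name, and for 33469 starts in all. A cytosine at the annotated start base followed by 4 pyrimidines was present in 23 of the 69 genes (33.3%) and in 2.63% of all starts. A second form was looser in position but asked for a longer tract, a cytosine and 5 pyrimidines beginning within 4 bases of the start. It was present in 34 genes (49.3%) against 8.42%. The letters CTCGCGA, searched on both strands like the motifs that follow, were in 13 genes (18.8%) against 1.68% of all promoters. In Rps7, a small subunit protein, the match lies just before the start and is in capitals here, overlapping its own reverse complement.
Rps7, chr6:50999421-50999470, minus strand: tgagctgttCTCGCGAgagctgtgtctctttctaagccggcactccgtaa
The letters CCGGAAG, a core that ETS factors bind, were in 21 genes (30.4%) against 8.75%. By contrast TATAAA was in 9 genes (13.0%, against 14.2% of all promoters), and CACGTG, the E-box of Myc, was in 5 (7.25%, against 6.42%). A match is only a match of letters, and an annotated start can differ from the start used in lung.

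Mean signals of the member rows over all libraries ran from 3.97 to 21031, with a median of 4660. Gene lengths were not used here, so levels are compared here between libraries and not between genes. There were 10 rows with means below 300, among them Rps6, Rpl7a, Rpl35a and Rplp2, whose proteins are in every ribosome. Ribosomal protein genes have many processed pseudogenes, and how reads that fit several copies were shared is not stated by the labels, so rows of low or jumping signal are uncertain as measures of the gene. Table totals were 20.6 M to 27.1 M signal units per library. Endothelial markers (8 of 8 measured) summed to 250344 to 307884 in the ECs and 87042 to 92268 in normoxia lung, while 6 of 6 alveolar epithelial markers were still at 98142 to 227842 in the ECs (467490 to 683351 in normoxia lung). Leukocyte markers (7 of 7 measured) summed to 15948 to 21983 in the ECs and 6246 to 8104 in normoxia lung, and their part in the differences between ECs and lung was not tested. Ahr itself did not differ by label beyond the spread. Its signal was 1996, 3073 and 1740 in WT SuHx lung and 2515, 2523 and 1800 in lungs labelled Ahr-KO (log2 fold change 0.03 ± 0.26 SE, limma adjusted p = 0.966), so the genotype below is as labelled.

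The share of each library's signal held by all 89 rows together was 1.74%, 1.73% and 2.14% in normoxia lung (1.87 ± 0.232, SD, n = 3). It was 2.24%, 1.99% and 2.70% in WT SuHx lung (2.31 ± 0.358). Lungs labelled Ahr-KO had 1.80%, 1.94% and 2.82% (2.19 ± 0.551), and ECs had 1.75%, 1.78% and 2.37% (1.97 ± 0.348). The groups overlapped, and in each group the library of suffix 2 had the highest share.

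**Figure D1:**
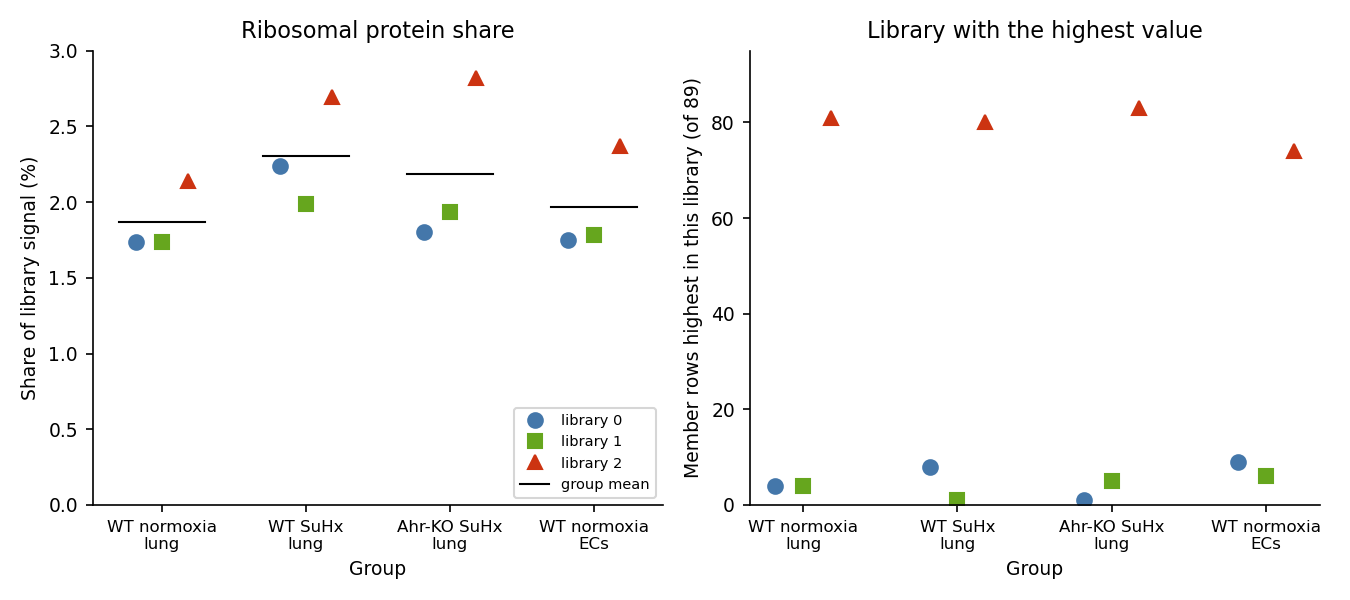
Left, share of each library's signal (in %) held by the 89 ribosomal protein rows, with the group mean as a line. Right, the number of those rows whose highest value in the group is in that library: suffix 2 holds 74 to 83 of 89 in all 4 groups.

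This shift between replicates was shared by nearly the whole family. The suffix 2 library was the highest of its group for 81 of 89 members in normoxia lung, 80 in WT SuHx lung, 83 in lungs labelled Ahr-KO and 74 in ECs. Over all rows with a mean of at least 1 the corresponding shares were 37.3%, 38.1%, 38.5% and 34.0%. The median member lay 0.16, 0.25, 0.38 and 0.24 (log2) above its group mean there, against -0.02 to 0.00 for all rows. Small subunit rows lay 0.47 above the group mean in Ahr-KO 2 and large subunit rows 0.35. Mitochondrial ribosomal proteins, which serve the separate ribosome of mitochondria, lay 0.06 to 0.19 above it, and translation factors 0.07 to 0.15.

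The coefficient of variation within a group had a median over members of 10.9% in normoxia lung, 17.4% in WT SuHx lung, 25.4% in lungs labelled Ahr-KO and 16.4% in ECs. For rows outside the family with a mean of at least 1000 it was 7.87% to 10.4%. The members include rows of lower signal, so the sets differ in level. The labels name no batch, and no column could be tied to 1 sample. All 6 cardiac markers were measured, and their sum was 10924 in normoxia 2 and 23697 in Ahr-KO 2. It was at most 1563 and 6661 in the other libraries of those groups. In WT SuHx 2 the sum was 2554, the lowest of its group, and in EC 2 it was 376. The ribosomal RNA row was also highest in the suffix 2 library of each group, at 646, 848, 4398 and 2031. The part of either in the family's shift was not tested.

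Rplp0, a stalk protein often used as a reference gene, shows the pattern of the family. Its signal was 16063, 17815 and 20939 in normoxia lung, 21768, 19444 and 28119 in WT SuHx lung, 19150, 19802 and 25130 in lungs labelled Ahr-KO, and 18842, 21107 and 24198 in ECs. The suffix 2 library was highest in all 4 groups, and no group stood clear of normoxia lung. Rpsa, a small subunit protein also known as the laminin receptor, had 12902, 13460 and 15624 in normoxia lung and 18396, 15108 and 22375 in WT SuHx lung. Rpl5 and Rpl11, which with 5S RNA bind Mdm2 when ribosome assembly is disturbed, ranged over the 12 libraries from 8997 to 15419 and from 5888 to 9268. Both had their lowest library in Ahr-KO 0. Rps6, the target of S6 kinase, was listed at only 64.4 to 124.

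Over the 12 libraries, the Pearson correlation of a member's log2 signal with the family median had a median of 0.86, and 57 of 89 members were above 0.8. These points share libraries, scaling and replicate shifts, so the values are a description. Outside the family, 68 of 12449 rows with a mean of at least 50 were above 0.8, and the median was -0.05. Of the 5 rows most like the family, 4 were Rack1 (r = 0.98), a scaffold protein that sits on the small subunit, Hnrnph3 (0.93), an RNA-binding protein, Bloc1s4 (0.92), a subunit of a lysosome-related complex, and Polr1d (0.91), a subunit of RNA polymerases I and III. Rack1 is a part of the ribosome that the name rule does not take. The members least like the median were Rpl30l1 (-0.18), Rpl39l (-0.01), Rpl17 (0.04), Rpl10l (0.18), Rps27l (0.23), Rpl39 (0.26) and Rpl3 (0.33).

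The first comparison asks what changed in WT lung by day 4 of SuHx. Rps2 and Rps27l rose, no member fell, and the family's median lay above that of all rows. Rps2, a small subunit protein, had signals of 1378, 1576 and 2189 in normoxia lung and 2715, 2406 and 3313 in WT SuHx lung. The groups did not overlap (1.66-fold, log2 fold change 0.73 ± 0.19 SE, limma adjusted p = 0.0340). Rps27l, a paralogue of Rps27 that p53 induces, had 617, 625 and 718 in normoxia lung and 919, 857 and 1066 in WT SuHx lung. Here too every SuHx library was above every normoxia library (1.45-fold, 0.53 ± 0.13, limma adjusted p = 0.0300).

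These 2 called rows were 2.25% of the members, below the background of 7.08% of all tested rows called higher (6.39% were called lower). At an unadjusted p under 0.05 there were 7 members. The log2 fold change was above 0 for 84 of 89 members, against 45.7% of all rows. The median was 0.26 for members (0.23 for large subunit rows and 0.31 for small subunit rows) and -0.04 for all rows. The groups did not overlap in 18 members that were higher and 1 that was lower, and the background for these was 17.0% and 19.7% of all rows. A small difference between group means thus ran through most of the family, and it was within the spread of the replicates for nearly every single gene. Members rise and fall together between libraries, so counts of members are not independent, here or in the comparisons below. The median member lay 0.25 above its group mean in WT SuHx 2 and 0.16 in normoxia 2, and the family's shares of signal overlapped between the groups. Without WT SuHx 2 the median was still above 0, and over the libraries left out in turn it ran from 0.16 to 0.37, with 0 to 5 members called higher. The count was 0 without normoxia 0, normoxia 1, WT SuHx 0, WT SuHx 2 or Ahr-KO 1, and 5 without Ahr-KO 2. Shares of all rows called in these fits are not given here, so the count may move with the whole table.

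Some large differences were not called because their libraries scatter. Rpl9 (log2 fold change 0.80 ± 0.25, limma adjusted p = 0.0650) and Rpl36al (0.68 ± 0.24, adjusted p = 0.0884) did not overlap between the groups. Rpl3, whose protein shapes the peptidyl transferase centre, had 10987, 12373 and 12501 in normoxia lung and 12030, 12107 and 8757 in WT SuHx lung. Its lowest library of all 12 was WT SuHx 2, where 80 members had their group's highest value. Markers of dividing cells (5 of 5 measured) summed to 1227 to 2062 in normoxia lung and 5625 to 6835 in WT SuHx lung. Other marker lists (5 of 5 measured in each) were also higher in all 3 WT SuHx libraries than in normoxia lung. Erythroid markers summed to 695 to 1258 in normoxia lung and 4423 to 7398 in WT SuHx lung, fibroblast markers to 10916 to 21482 and 30184 to 38264, and markers of smooth muscle and pericytes to 16206 to 23634 and 29998 to 41629. Endothelial markers were lower in all 3 WT SuHx libraries, at 87042 to 92268 in normoxia lung and 74414 to 78243 in WT SuHx lung. So were airway markers, at 149169 to 169073 and 103099 to 119103. Alveolar, leukocyte and cardiac markers overlapped between the groups. The part of these cell types in the level of the family and of the related lists was not tested.

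Genes that build or drive ribosomes were counted from lists. Of 33 assembly factors, 6 rose (18.2%, against 7.08% of all rows) and none fell. Nop56, a core protein of box C/D particles that methylate ribosomal RNA, rose 1.37-fold (limma adjusted p = 0.0140), and Wdr12 rose 1.43-fold (adjusted p = 0.0141). Its partner in the PeBoW complex, Bop1, rose 1.34-fold (adjusted p = 0.0313), as did Bysl, a factor of small subunit assembly (1.34-fold, adjusted p = 0.0149). Bop1 lost its call in 7 of 19 alternatives and the other 3 genes in 1 or 2.

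Of 23 regulators, 4 fell (17.4%, against 6.39% of all rows) and none rose. Deptor, an inhibitor of mTOR, had 1103, 1796 and 1015 in normoxia lung and 620, 594 and 448 in WT SuHx lung, without overlap (2.30-fold lower, limma adjusted p = 0.00690). Mxi1, a repressor that opposes Myc, was 1.38-fold lower (adjusted p = 0.00899), Rictor, the defining subunit of mTORC2, 1.51-fold lower (adjusted p = 0.0206), and Larp1 1.25-fold lower (adjusted p = 0.0459). Larp1 lost its call in 12 of 19 alternatives (adjusted p up to 0.145) and Rictor in 4. Of 22 translation factors and other TOP mRNAs, Eif4a1, the helicase of the cap-binding complex, rose (1.41-fold, adjusted p = 0.00762) while its cofactor Eif4b was 1.25-fold lower (adjusted p = 0.0477), a call lost in 12 of 19 alternatives (up to 0.152). These were 1 higher and 1 lower (4.55% each), below the 7.08% and 6.39% of all rows. Of 73 mitochondrial ribosomal protein rows, 4 rose (5.48%, below the 7.08% of all rows) and none fell. The merged row of Mrpl18 and Pnldc1 led them (1.69-fold, adjusted p = 0.00865). Their median of 0.25 was close to that of the cytosolic members.

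**Figure D2:**
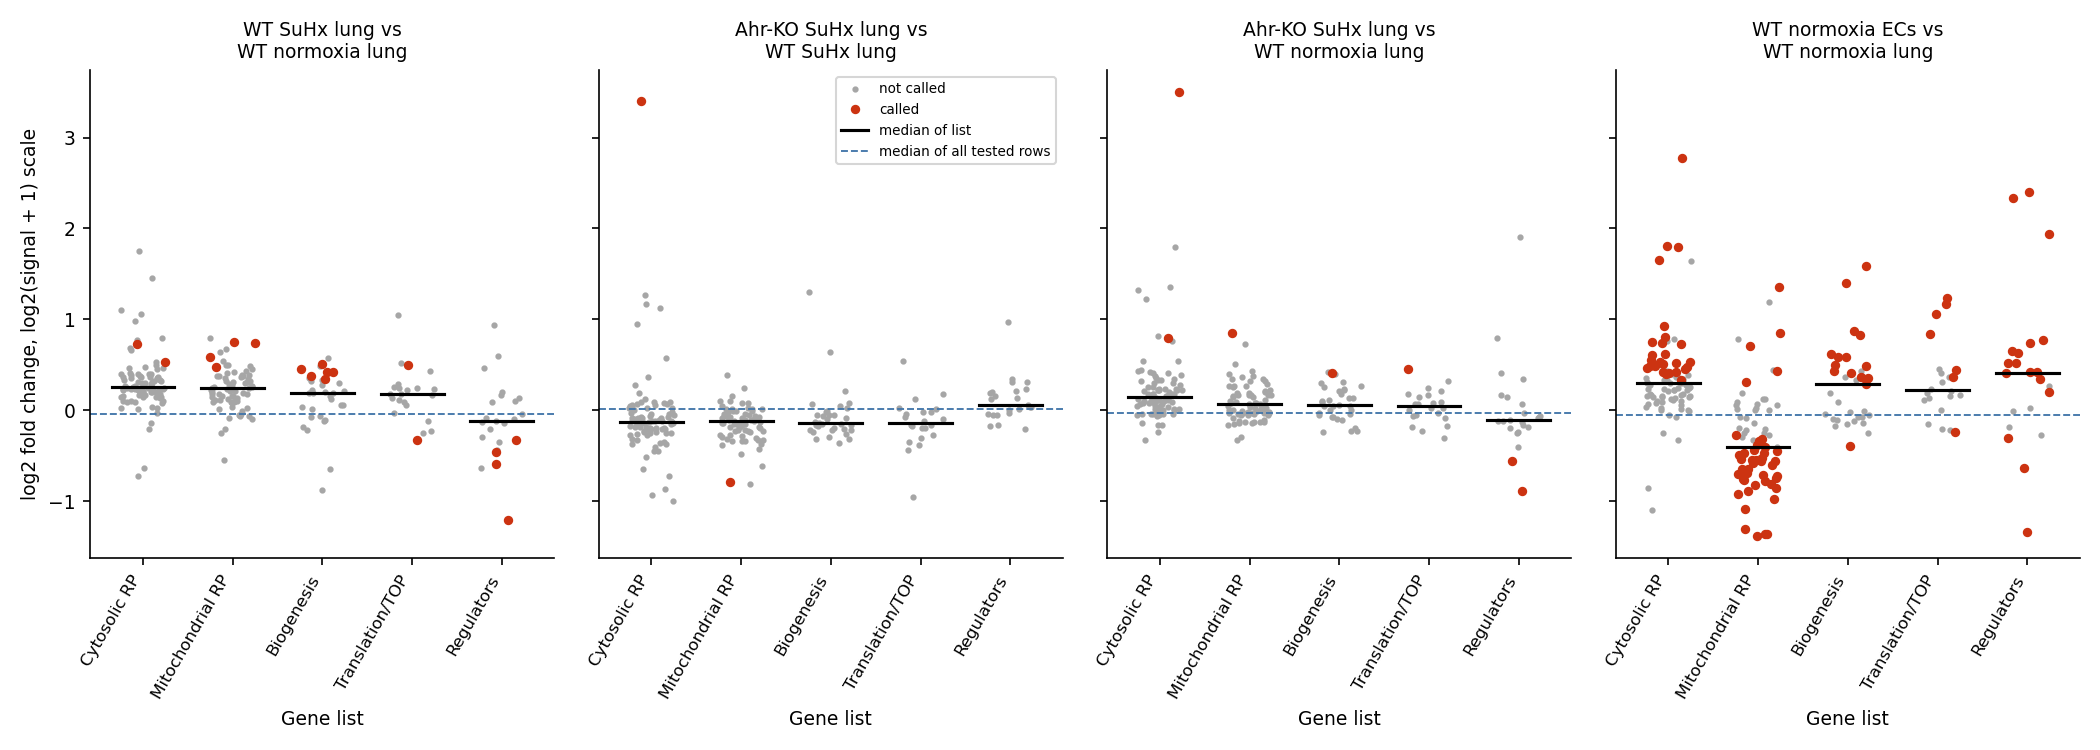
Log2 fold change on the log2(signal + 1) scale of the members and of 4 related lists in each comparison, with rows called by limma in red, list medians as black lines and the median of all tested rows dashed. Cytosolic and mitochondrial ribosomal proteins (RP) lie at 0.26 and 0.25 in WT SuHx lung, and at 0.30 and -0.41 in ECs.

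The second comparison asks what the label Ahr-KO changes under SuHx. Rpl39 was the single member called, and it was 10.6-fold higher with the label Ahr-KO (log2 fold change 3.40 ± 0.19 SE, limma adjusted p = 3.03e-05). The background was 0.197% of all rows called higher and 0.302% called lower, and 6 members had an unadjusted p under 0.05. Rpl39 encodes a very short protein that lines the exit tunnel of the large subunit. Its signal was 115, 107 and 169 in normoxia lung, 154, 125 and 131 in WT SuHx lung, and 1682, 1347 and 1349 in lungs labelled Ahr-KO. In ECs it was 93.4, 105 and 1098. The 3 Ahr-KO libraries and EC 2 lay between 1098 and 1682, and the other 8 libraries between 93.4 and 169.

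EC 2 is labelled WT, so the high level of this row was not confined to the libraries labelled Ahr-KO. The row kept its call in all 19 alternatives, with log2 fold changes of 3.30 to 3.49 and limma adjusted p of at most 0.0499. The reads behind the 2 levels were not examined here. The ribosomal RNA row was also higher in the lungs labelled Ahr-KO, at 3680, 3007 and 4398 against 440, 347 and 848 in WT SuHx lung (7.20-fold, limma adjusted p = 0.0255). That call was lost in 7 of 19 alternatives, 6 of which leave out 1 library (adjusted p up to 0.114). It was at 1563, 1704 and 2031 in the ECs, where 2 of 3 libraries had low Rpl39. Whether the rows are linked was not tested.

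For the remaining members the label made no difference that passed the test. The median log2 fold change was -0.12 (all rows 0.02), and 24 of 89 were above 0, against 53.3% of all rows. The groups did not overlap in 4 members that were higher and 2 that were lower (background 11.7% and 10.2%). Leaving out 1 library at a time moved the median from -0.31 to -0.01, with the member count staying at 1. Rpl9 had the smallest adjusted p after Rpl39 (log2 fold change -0.93 ± 0.25, limma adjusted p = 0.165). Its libraries were at 4214, 3758 and 5237 in WT SuHx lung and 2177, 1740 and 3149 in lungs labelled Ahr-KO, without overlap. None of the translation factors, assembly factors or regulators was called. Of the mitochondrial rows only the merged Mrpl18 and Pnldc1 row was called (1.72-fold lower, limma adjusted p = 0.0480), and it lost its call in 18 of 19 alternatives (adjusted p up to 0.208). Fibroblast markers summed to 42695 to 54935 in the lungs labelled Ahr-KO, above all WT SuHx libraries. Markers of dividing cells (8105 to 10035 against 5625 to 6835) and cardiac markers (5368 to 23697 against 2554 to 3385) were also above all WT SuHx libraries. The part of these marker lists was not tested.

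Lungs labelled Ahr-KO in SuHx were also set against normoxia lung, which shares its control libraries with the first comparison. Rpl39 (11.3-fold, limma adjusted p = 8.24e-05) and Rps2 (1.74-fold, log2 fold change 0.80 ± 0.19, adjusted p = 0.0286) rose and no member fell, on a background of 5.95% higher and 3.80% lower. Rps2 was at 2556, 2844 and 3449 in the lungs labelled Ahr-KO, all above the normoxia libraries. Its call was lost without normoxia 0, normoxia 1, Ahr-KO 1 or Ahr-KO 2. The log2 fold change was above 0 for 74 of 89 members (45.8% of all rows), and 10 higher and 0 lower members did not overlap (15.1% and 17.9%). The median member was at 0.15, against -0.03 for all rows, and without 1 library it lay between -0.01 and 0.27. Of the related lists, Nop58, the partner of Nop56, rose (1.33-fold, adjusted p = 0.0415), as did Eif4a1 (1.38-fold, adjusted p = 0.0117), while Deptor (1.85-fold, adjusted p = 0.0291) and Rictor (1.47-fold, adjusted p = 0.0308) fell. These calls were lost in 10 of 19 alternatives for Nop58, 2 for Eif4a1, 6 for Deptor and 7 for Rictor.

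The last comparison sets ECs against normoxia lung. Of the 89 members 26 rose and none fell, which is 29.2% against a background of 26.1% of all rows called higher (30.1% were called lower). The share of members called higher was thus near that of all rows. The median member was at 0.30 (all rows -0.05), 82 of 89 were above 0 (47.2% of all rows), and 33 higher and 1 lower did not overlap, on a background of 30.4% and 35.1%. This direction was lost with quantile normalization, where 8 members were higher, 3 were lower and the median was -0.04. Of all rows 27.3% were then higher and 26.8% lower. With all libraries scaled to a common total, 7 were higher and 2 lower, and the median was 0.07 while that of all rows moved to -0.28. Of all rows 18.6% were higher and 39.7% lower with that scaling. With median ratio scaling 32 members were higher and 0 lower, and the median was 0.36 (all rows 0.01). Of all rows 28.5% were higher and 27.8% lower there. Without rescaling, the number called higher was 14 without normoxia 0, 17 without normoxia 1 and 17 without EC 2. Shares of all rows called in these fits are not given here, so a fall in the count may not be particular to the family.

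Rps28, a small subunit protein at the mRNA exit, was among the members that kept their call in all 15 alternatives. It had 1784, 2072 and 1956 in normoxia lung and 2947, 3158 and 3738 in ECs (1.69-fold, log2 fold change 0.76 ± 0.11 SE, limma adjusted p = 0.00118). Every EC library was above every normoxia library.

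The largest fold changes were in rows of low signal. Rplp2, a stalk protein, had 33.4, 36.6 and 48.3 in normoxia lung and 139, 115 and 121 in ECs (3.14-fold, limma adjusted p = 0.000921). Rpl35a rose from 32.6, 17.1 and 46.8 to 132, 94.0 and 97.4 (3.50-fold, adjusted p = 0.00595). Rplp2 was uneven in WT SuHx lung, at 37.8, 36.7 and 220. Rps15al4, a row named as a copy of Rps15a, rose from 27.8, 18.8 and 13.8 to 95.6, 71.1 and 49.9 (3.48-fold, adjusted p = 0.00497).

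Rpl3l, a paralogue that replaces Rpl3 in heart and skeletal muscle, had 3.18, 1.70 and 4.60 in normoxia lung and 25.1, 21.7 and 33.7 in ECs (6.87-fold, limma adjusted p = 0.00116). The ECs had the lowest sums of cardiac markers of the 4 groups (176 to 376), and Rpl3l was at 1.52 in Ahr-KO 2, the library with the most cardiac RNA. The row did not follow the cardiac markers. It was 0.161% of Rpl3 in ECs and 0.0265% in normoxia lung.

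Mitochondrial ribosomal proteins went the other way in ECs. Of 74 mitochondrial ribosomal protein rows 40 fell (54.1%, against 30.1% of all rows) and 5 rose (6.76%, against 26.1%), with a median of -0.41. Mrpl51 fell from 758, 728 and 694 to 294, 291 and 266 (2.56-fold, limma adjusted p = 8.22e-05), and Mrpl14 fell 2.56-fold as well (adjusted p = 0.000142). With quantile normalization 7 were higher and 20 lower, where 27.3% of all rows were higher and 26.8% lower. The share called lower was then near that of all rows, and the median was -0.21 against 0.01 for all rows. With a common total 3 of 73 were higher and 47 lower, where 18.6% of all rows were higher and 39.7% lower. Within a library, the median log2 signal of cytosolic members exceeded that of mitochondrial members by 3.04, 3.05 and 3.11 in normoxia lung and by 3.65, 3.85 and 4.06 in ECs. In the 6 SuHx libraries the excess was 2.90 to 3.19, so all 3 ECs lay above all 9 lung libraries. This difference within a library does not depend on the factor by which a library was divided.

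Of 34 assembly factors 14 rose (41.2%, against 26.1% of all rows) and 1 fell (2.94%, against 30.1%) in ECs. With a common total 6 were higher and 5 lower (of all rows, 18.6% and 39.7%). With quantile normalization 15 were higher and 1 lower (of all rows, 27.3% and 26.8%), and median ratio scaling gave the same counts (of all rows, 28.5% and 27.8%). The merged row of Nolc1 and Pprc1 rose 3.01-fold (limma adjusted p = 7.17e-05), Gnl3, the nucleolar GTPase nucleostemin, 2.64-fold (adjusted p = 0.000103) and Dkc1, which modifies uridines of ribosomal RNA, 1.84-fold (adjusted p = 0.000208). Of 23 regulators 14 rose (60.9%, against 26.1% of all rows) and 3 fell (13%, against 30.1%). With a common total 8 were higher and 4 lower, where 18.6% of all rows were higher and 39.7% lower. With quantile normalization 9 were higher and 3 lower (of all rows, 27.3% and 26.8%). Myc had 504, 551 and 458 in normoxia lung and 2454, 2605 and 2567 in ECs (5.05-fold, adjusted p = 1.13e-05), and its level in SuHx lung was 483 to 688. Of 22 translation factors and TOP mRNAs 6 rose (27.3%, near the 26.1% of all rows) and 1 fell (4.55%, against 30.1%). The split depended on the scaling. It was 3 higher and 5 lower with quantile normalization (median -0.06), 4 and 4 with a common total (median -0.01) and 8 and 0 with median ratio scaling. The shares of all rows at each scaling are those given for the assembly factors. Gas5, a non-coding RNA with a TOP start, rose 2.35-fold (adjusted p = 6.41e-05), Eif4a1 2.08-fold (adjusted p = 0.000113) and Pabpc1, the poly(A)-binding protein, 1.80-fold (adjusted p = 0.00105, and 0.0529 with quantile normalization).

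Paralogues were compared with their parents as a percentage within each library, which the scaling cannot change. In all, 4 comparisons of each pair gave 36 tests. With 3 libraries against 3, the design allows no exact two-sided permutation p below 0.1, and no pair passed after adjustment (smallest adjusted p = 0.277), so the values are given as description. Rps27l was 12%, 11.4% and 11.2% of Rps27 in normoxia lung, 14.5%, 16.3% and 11.9% in WT SuHx lung, 16.6%, 18.3% and 12% in lungs labelled Ahr-KO, and 8.02%, 7.48% and 6.16% in ECs. The ECs were below all lung libraries, and the suffix 2 library was lowest in every group.

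Rpl22l1, which can replace Rpl22 in the large subunit, was 31.2%, 33.0% and 33.1% of it in normoxia lung and 41.4%, 38.7% and 33.6% in WT SuHx lung. It was 34.0%, 37.3% and 44.3% in lungs labelled Ahr-KO and 47.5%, 45.5% and 46.4% in ECs. Normoxia lung was lowest and ECs highest, without overlap between any other group and either of them. In the fit over all rows, Rpl22l1 rose 1.53-fold in ECs (limma adjusted p = 0.00748) and was not called in WT SuHx lung (1.29-fold, adjusted p = 0.280). Rpl36al was 50.6% ± 4.32 of Rpl36a in normoxia lung (SD, n = 3), 62.9% ± 8.77 in WT SuHx lung, 47.3% ± 2.78 in lungs labelled Ahr-KO and 32.6% ± 5.17 in ECs. WT SuHx lung was above, and ECs below, every library of the other groups.

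Of the other pairs, Rpl7l1, a factor of ribosome assembly named for its likeness to Rpl7, stayed between 16.5% and 26% of it in all libraries. Rpl10l, expressed mainly in testis, was 0.770% to 1.78% of Rpl10 as group means. Rps4y2 was 2.67% ± 1.22 of Rps4x in normoxia lung and 1.31% ± 0.276 in WT SuHx lung. Rpl39l, a testis paralogue of Rpl39, was at 0 to 14.2 in all 12 libraries. Its low level allows no ratio to be read, and it did not share the step of Rpl39 in the lungs labelled Ahr-KO (0.89 to 13.7). Rps19bp1, a nucleolar partner of Rps19, is no ribosomal protein despite its name. It was at 530 to 635 in normoxia lung and 622 to 957 in WT SuHx lung.

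**Figure D3:**
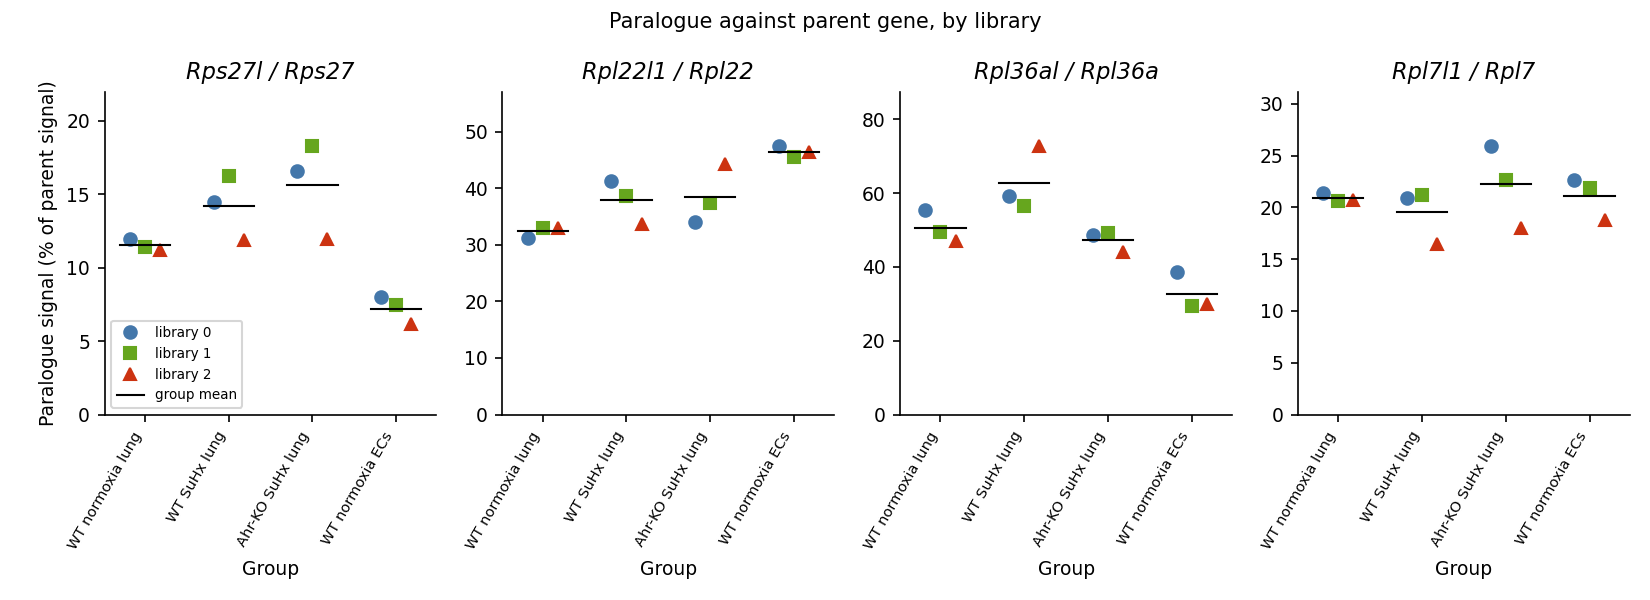
Signal of 4 paralogues as a percentage of the parent gene in the same library, with group means as lines. Rps27l and Rpl36al are lowest in ECs and Rpl22l1 is highest there, while Rpl7l1 stays between 16.5% and 26%.

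There were 5 rows that jumped at least 4-fold between libraries of 1 group, namely Rpl39 and Rplp2 (above), Rps9, Rpl30l1 and Rpl39l. Rps9, a small subunit protein that enters assembly early, was at 90.7, 126 and 740 in normoxia lung and 1310, 149 and 1692 in WT SuHx lung. It was at 225, 738 and 250 in lungs labelled Ahr-KO and 1030, 906 and 282 in ECs. High and low libraries occurred in each group, so its log2 fold change of 1.76 ± 1.01 in WT SuHx lung (limma adjusted p = 0.258) says little. Rpl30l1 ran from 0.85 to 34.2 with no order by group. Rps19, mutated in Diamond-Blackfan anaemia, did not reach a 4-fold jump but was at 1014, 1684 and 3406 in lungs labelled Ahr-KO. It was at 1756, 1513 and 1865 in normoxia lung and at 2549, 2123 and 3273 in ECs, where it rose 1.53-fold (limma adjusted p = 0.0163), a call lost in 4 of 15 alternatives.

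Rpl17 differed from the family in another way. It was lower in suffix 2 than in both other libraries in 3 of the 4 groups, at 2432 against 3980 and 3470 in WT SuHx lung, 2206 against 3204 and 3514 in lungs labelled Ahr-KO, and 3648 against 4494 and 4712 in ECs. In normoxia lung the order was 3258, 1633 and 2123. Rpl17 rose 1.90-fold in ECs (limma adjusted p = 0.0144), a call lost with quantile normalization or without EC 1.

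**Figure D4:**
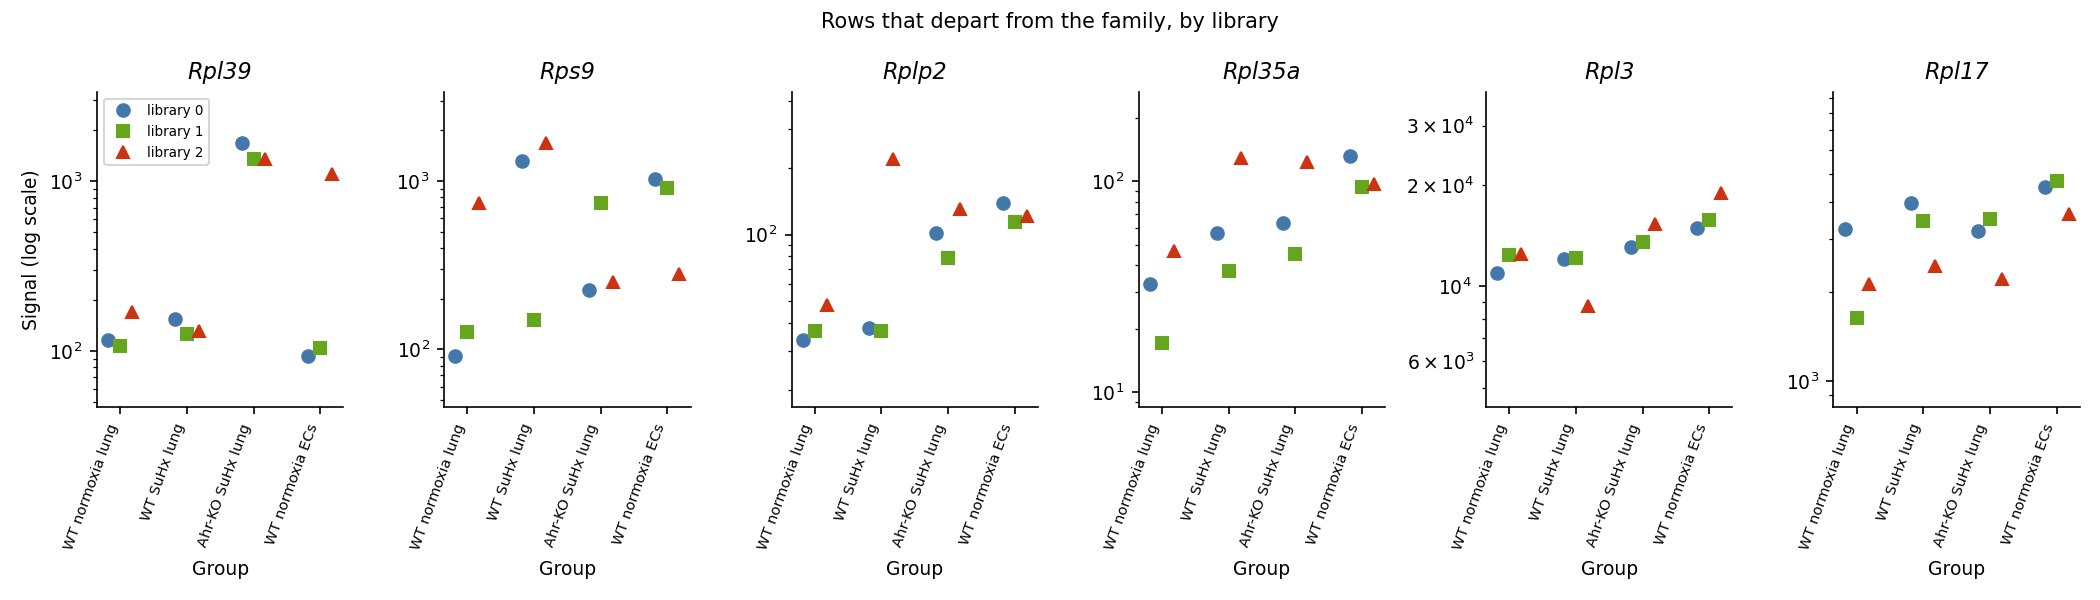
Signal per library, on a log axis, of 6 members: Rpl39, Rps9, Rplp2, Rpl35a, Rpl3 and Rpl17. Rplp2 and Rpl35a, rows of low signal, were highest in suffix 2 in each lung group, like most of the family. Rpl39 has the 3 Ahr-KO libraries and EC 2 between 1098 and 1682 and the others between 93.4 and 169, and Rps9 scatters within each group.

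The annotated start tract did not sort the members by their change. In WT SuHx lung against normoxia lung the 23 genes with a cytosine and 4 pyrimidines at the start had a median log2 fold change of 0.24, and the 46 matched genes without it had 0.30. In ECs the medians were 0.30 and 0.31, and for the label Ahr-KO under SuHx they were -0.11 and -0.14. Within each comparison the middle ranges overlapped (0.14 to 0.33 with and 0.22 to 0.41 without in WT SuHx lung).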

How the data were processed

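RNA was measured in 12 samples (4 groups of 3). The authors deposited a signal per gene and library. From the values themselves, it is an estimated read count divided by 1 factor per library, and low values are whole multiples of what 1 read is worth (0.745 to 1.25). Totals stand for 20.04 M to 28.6 M reads, and counting error is small for all but the lowest rows. Per the labels' protocols, Trizol lysates were purified on columns with a DNase step. Per the submitters' processing notes, FastQC and the rn6 build were used. No aligner, counter, normalization or strand is named by those sources. Samples were grouped by column name, and no column was tied to 1 sample because suffixes (0 to 2) and titles number differently.

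The test was limma's (version 3.58.1, under R 4.3.3), two-sided, with an eBayes trend, on log2(signal + 1), for rows whose mean reached 1. The Benjamini-Hochberg adjustment ran over all tested rows (15234 in lung, 15186 with ECs), and a row was called under an adjusted p of 0.05. The 3 lung comparisons shared 1 fit of 9 libraries, and ECs and normoxia lung had a fit of 6. Fold changes are on the log2(signal + 1) scale, which understates low rows, and ± gives the SE unless SD is named. The script was tested on simulated data. Named rows were up to 8 called members per direction and comparison, rows that jump at least 4-fold within a group, paralogues beside parents, Rplp0, Rpsa, Rps6, Rpl5, Rpl11 and Rps19, and up to 4 called rows of each related list. A few genes that this rule takes are not reported here. Rpl3, Rpl7a, Rpl9, Rpl17 and Rps7 were chosen after their values were seen. A planned ranking by level per coding length was not made, because lengths were not used here. The members and lists were chosen with earlier results of these data known. Alternatives were other scalings, pseudocount, filters, trend, samples in the fit, fold threshold, member rules, the suffix as a block, and each library left out.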

Additional observations from a re-analysis of the deposited data

How the results depend on the processing

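The column suffix did not qualify as a pairing: over all rows, libraries of the same suffix correlated at -0.038 to 0.215 in their deviations from group means, and not every library correlated best with its own suffix. Between different suffixes the range was -0.2 to 0.178. The highest same-suffix values were between lung libraries of suffix 2 (0.215 between normoxia and Ahr-KO, 0.196 between WT SuHx and Ahr-KO). With the suffix as a replicate block, the members called higher were 18 in WT SuHx lung against normoxia lung (with 10.1% of all rows called higher), 5 in lungs labelled Ahr-KO against normoxia lung (7.35% of all rows called higher) and 41 in ECs against normoxia lung (26.4% of all rows called higher), and 1 was called lower for the label Ahr-KO under SuHx (0.328% of all rows called lower). For WT SuHx lung the count called higher was 0 without limma's trend and 1 with only the 2 groups in the fit. It was 7 without normoxia 2 and Ahr-KO 2 (8.69% of all rows called higher), and 0 to 5 for single libraries left out. Leaving out normoxia 2 and Ahr-KO 2 gave 1 member lower for the label Ahr-KO (0.283% of all rows called lower), and leaving out jumping rows gave 0 higher. Against normoxia lung, lungs labelled Ahr-KO had 1 member higher without the trend or without jumping rows, and 1 to 3 without single libraries. In ECs quantile normalization gave 8 higher and 3 lower (median -0.0404), where 27.3% of all rows were higher and 26.8% lower. A common total gave 7 and 2 (median 0.0667, all rows 18.6% and 39.7%). Median ratio scaling gave 32 and 0 (median 0.364, all rows 28.5% and 27.8%). Asking for a log2 change of 0.5 or more in size left 16 higher. Single libraries left out gave 14 to 32 higher and 0 to 1 lower. The cause of these shifts was not tested. Shares of all rows called without the trend, with 2 groups, with a fold threshold or without 1 library are not given here. Medians without 1 library ran from 0.16 to 0.37 (WT SuHx), -0.31 to -0.01 (label Ahr-KO), -0.01 to 0.27 (label Ahr-KO against normoxia) and 0.18 to 0.40 (ECs).

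The share of signal was 2.29% in normoxia lung, 2.82% in WT SuHx lung and 2.33% in ECs when the 100 highest rows outside the family were left out of the total, a change that follows from the smaller total. Without 1 library the shares ran from 1.74% to 1.94% in normoxia lung, 2.11% to 2.47% in WT SuHx lung, 1.87% to 2.38% in lungs labelled Ahr-KO and 1.77% to 2.07% in ECs. Of named genes, Rps27l lost its call in 6 of 19 alternatives (adjusted p up to 0.105), Rps2 in 7 of 19 in WT SuHx lung (up to 0.119) and in 5 of 19 in lungs labelled Ahr-KO (up to 0.102), and Rpl39 in none. In ECs, Rpl22l1 lost its call in 1 of 15, and Rplp2, Rpl3l, Rps28, Rps15al4 and Rpl35a in none. Having 3 libraries a group, and a family-wide shift between them, limit how small a difference can be called.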
